A study of Mus musculus with 7 samples.

Results

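The genes described here are known to respond to androgen, and they were followed in luminal cells, which form the secretory lining of the prostate, from T-ETV1 and wild-type (WT) mice. The list held 59 mouse genes and uses no value measured on these arrays. Of them 58 had a probe set assigned to that gene alone, among 18193 genes on the array, and Sord was not analysed here. In T-ETV1 mice the mouse Tmprss2 promoter drives the cDNA of human ETV1, an ETS transcription factor, and WT mice have no such allele. There were 4 T-ETV1 arrays (A to D) and 3 WT arrays (A to C). Sorting kept cells that lacked CD31, CD45, Ter119 and Sca1 and carried CD49f. T-ETV1 cells had also passed a gate on GFP, so that genotype and gate cannot be told apart. Tmprss2 is itself known as an androgen target, so the promoter that drives the transgene belongs to the same class of genes as those described here. The labels used here give no age, strain background, hormone treatment or pooling of mice. The series text speaks of 3 biological replicates, but no label ties an array to a mouse, and p-values then measure only the spread between these arrays.

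The androgen receptor is a steroid hormone receptor that, once bound by testosterone or dihydrotestosterone, leaves its chaperones, enters the nucleus and binds DNA as a dimer at androgen response elements, where pioneer factors such as FOXA1 have opened the chromatin. In luminal cells its targets serve secretion, glycosylation, lipid supply and cell survival, and many of them fall after castration. ETS factors, ETV1 among them, bind elements with a GGAA core and can occupy some of the same regulatory regions as the androgen receptor in prostate cells.

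Promoter sequences that bear on these factors are shown for 3 members as examples, and other members with matches are not printed. The members were chosen as targets of a DNA-binding receptor, and the allele adds a DNA-binding ETS factor. Promoter windows from RefSeq on GRCm38.p6, each of 250 bases before to 50 after a start, were matched by symbol for 43 members with 65 starts. Letters were searched on both strands. The arm of the androgen response element, AGAACA, was found in 10 of the 65 member windows (15.4%) and in 19.0% of all 32851 windows. The full palindrome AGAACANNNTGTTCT, which contains that arm on each strand, was found in 3 windows in all (0.00913%), 1 of them a start of Sgk1. The ETS letters CCGGAA were found in 12 member windows (18.5%) and in 14.9% of all windows. The longer form CCGGAAGT, which contains CCGGAA, was found in 2 member windows (3.08%), those of Cdc14b and Gnai3, and in 3.89% of all. A match is a description of these letters and not a measured binding site. The stretches below are the 250 bases just before 1 start of each gene, 5′ to 3′ on the strand of the gene, with the matches in capitals: the palindrome and a further arm in Sgk1, CCGGAAGT read on the opposite strand in Cdc14b and 1 arm, also on the opposite strand, in Abcc4. Sgk1 is at chr10:21993640-21993889 on the plus strand, Cdc14b at chr13:64248539-64248788 on the minus strand and Abcc4 at chr14:118676932-118677181 on the minus strand.
Sgk1: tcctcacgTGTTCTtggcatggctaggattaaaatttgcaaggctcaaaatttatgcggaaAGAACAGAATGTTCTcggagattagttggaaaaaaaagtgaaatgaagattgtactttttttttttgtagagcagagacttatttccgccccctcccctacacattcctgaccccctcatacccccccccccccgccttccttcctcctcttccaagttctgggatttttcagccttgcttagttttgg
Cdc14b: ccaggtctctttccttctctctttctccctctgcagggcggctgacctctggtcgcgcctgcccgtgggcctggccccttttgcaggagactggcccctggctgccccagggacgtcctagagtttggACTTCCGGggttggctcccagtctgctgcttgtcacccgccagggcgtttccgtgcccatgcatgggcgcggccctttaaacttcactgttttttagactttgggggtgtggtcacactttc
Abcc4: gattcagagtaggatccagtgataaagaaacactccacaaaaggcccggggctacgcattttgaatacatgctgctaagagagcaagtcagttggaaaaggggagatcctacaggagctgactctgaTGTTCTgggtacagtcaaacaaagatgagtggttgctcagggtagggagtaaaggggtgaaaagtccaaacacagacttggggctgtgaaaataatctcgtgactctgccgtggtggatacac

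No androgen-responsive gene passed the test between T-ETV1 and WT. Of the 58 members 0 had a limma p adjusted over all genes under 0.05 (0 of all 18193 genes, 0.00%), and the smallest adjusted p of a member was 0.716, for Rab4a. All values below are intensities of 1 probe set per gene, or differences of log2(intensity + 16), T-ETV1 minus WT, with their standard errors. The difference was positive in 28 members and negative in 30 (48.3% positive, beside 44.4% of all genes). Their median difference was -0.0034 on the log2 scale, beside -0.026 over all genes. At an unadjusted p under 0.05 there were 4 members (6.90%), against 6.12% of all genes. They were Rab4a and Herc3 with a positive difference (2.00% of all genes) and Cdc14b and Ndrg1 with a negative one (4.12% of all genes). The arrays of the 2 groups did not overlap in 5 members (8.62%), against 6.32% of all genes. In 4 of these, Rab4a, Herc3, Ell2 and Stk39, T-ETV1 was higher (6.90% of members, 2.42% of all genes), and in 1, Cdc14b, lower (1.72% of members, 3.90% of all genes). An absolute difference of 1 or more was measured for 3 members (5.17%), against 5.39% of all genes. The shares over both directions lay near those of all genes, whereas the split by direction was based on 1 to 4 members. Median centring of the arrays moved the median of all genes to 0.11 and that of the members to 0.13. Centring adds the same amount to every difference, so counts of positive and negative differences, here and below, depend on the scaling. It gave 4 members with a positive and 2 with a negative difference at an unadjusted p under 0.05 (all genes 6.57%). The plot of differences by role shows most members near 0, with intervals that are narrow for the genes of the secretory path and wide for a few genes such as Ndrg1, Akap12 and Pmepa1.

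**Figure D1:**
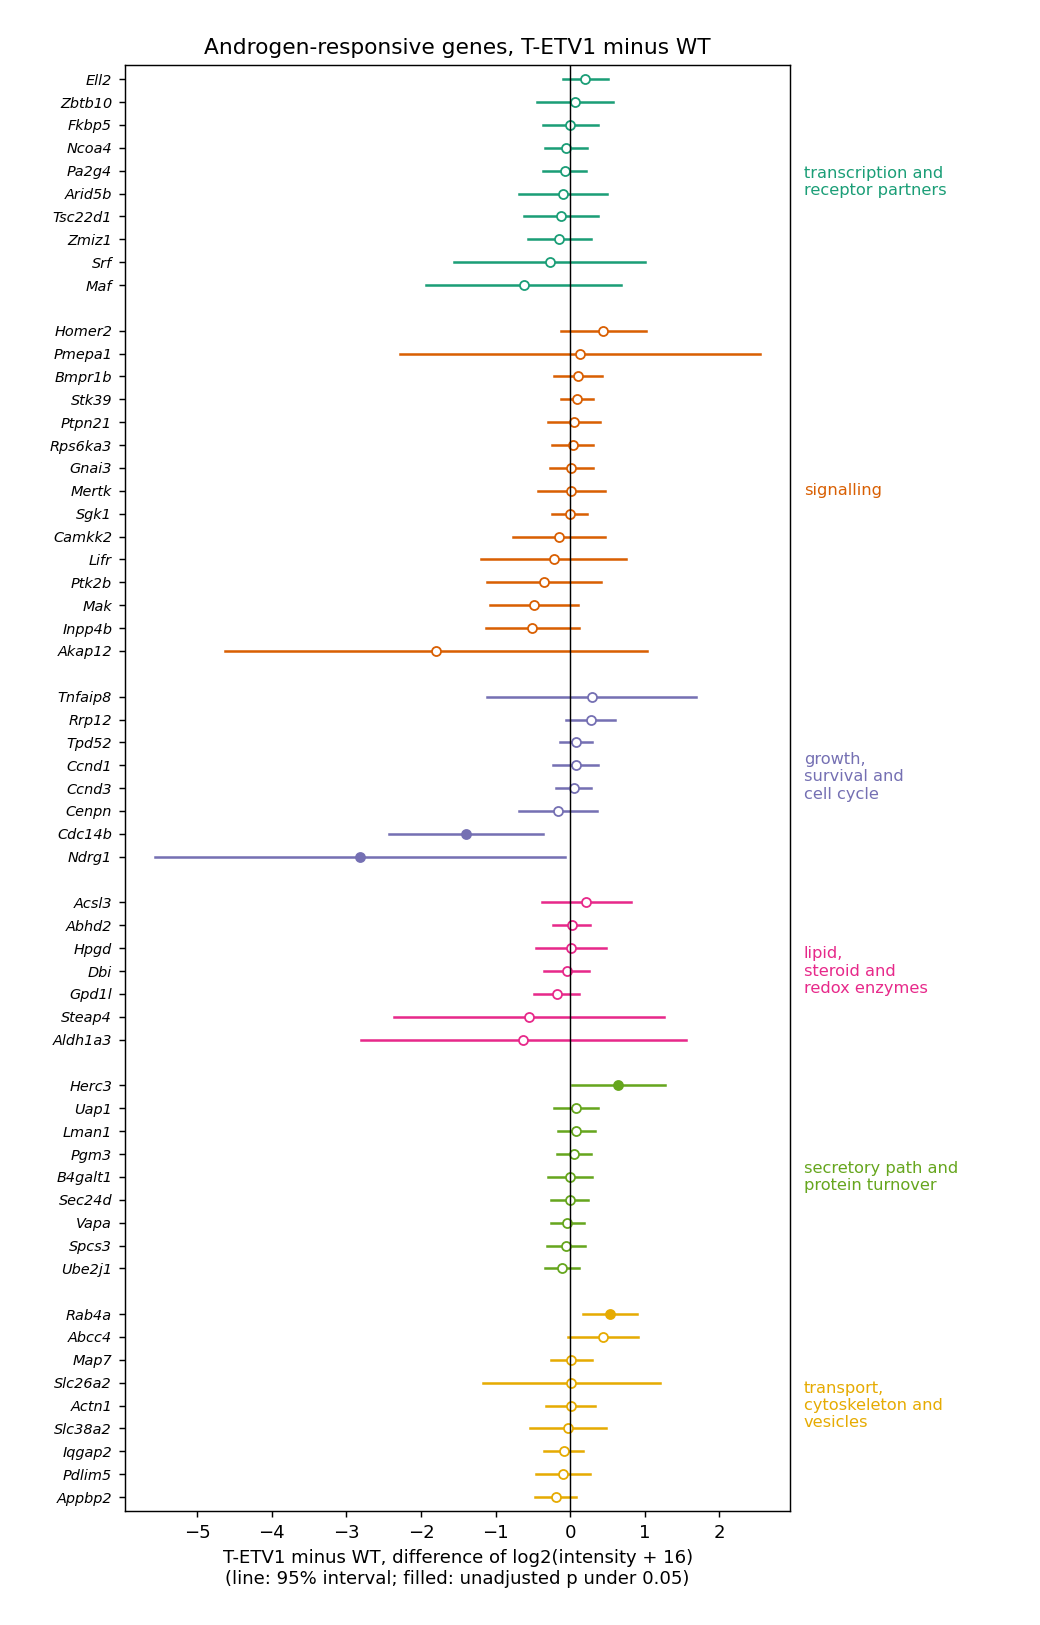
Difference of log2(intensity + 16), T-ETV1 minus WT, for each of the 58 androgen-responsive genes (points) with its 95% interval from limma (lines), grouped and coloured by role. Filled points mark an unadjusted p under 0.05, which 4 genes reached (Rab4a, Herc3, Cdc14b and Ndrg1), while no gene passed after adjustment.

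For many members the arrays bound the difference closely. The 95% interval of the difference lay within 0.5 either way in 30 members (51.7%), compared with 33.2% of all genes, and within 1 either way in 42 (72.4%), compared with 71.8% of all genes. Leaving out the lowest 50% of genes by mean level kept 52 members, and these shares were not compared at equal brightness. A p that misses the threshold does not show equal levels, and these intervals give the differences that remain possible. Fkbp5, the co-chaperone that holds steroid receptors and a widely used readout of androgen action, had intensities of 3299.7, 2756, 3098 and 2540.4 in T-ETV1 A to D, against 2665, 2612 and 3515 in WT A to C. Its difference was 0.0026 ± 0.16, with a 95% interval of -0.37 to 0.37, and the groups overlapped. Its sign turned when the mean of its probe sets was taken. Sgk1, the serum and glucocorticoid regulated kinase whose promoter palindrome is printed above, had intensities of 5598, 6183, 5812 and 6134 in T-ETV1 A to D, against 5568, 5981 and 6328 in WT A to C. These 7 values span 0.18 on the log2 scale, and the difference was -0.0058 ± 0.098 (95% interval -0.24 to 0.23), with a sign that turned after either other scaling.

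Among transcription factors and receptor partners (10 members) 3 differences were positive and 7 negative on the deposited scaling, with a median of -0.084. Ell2, an elongation factor of RNA polymerase II, had intensities of 3125, 4022, 3053 and 3412 in T-ETV1 A to D, against 3031, 2747 and 3033 in WT A to C. All 4 T-ETV1 arrays lay above all WT arrays, but T-ETV1 C exceeded WT C only narrowly. The difference was 0.20 ± 0.13 (adjusted p = 0.876), and the other probe set of Ell2 had -0.15. Ncoa4, first described as a coactivator of the androgen receptor and now known as the receptor that delivers ferritin for breakdown, had intensities of 5663, 4571, 4556 and 5188 in T-ETV1 A to D, against 5217, 4879.8 and 5411 in WT A to C. The groups overlapped, with a difference of -0.054 ± 0.12 (95% interval -0.34 to 0.23) whose sign turned after median centring and with array weights. Zmiz1, a PIAS-like coactivator of the receptor, had intensities of 2004, 1941, 2395 and 1728 in T-ETV1 A to D, against 1837, 2179 and 2719.8 in WT A to C, with the highest value of each group in array C. Its difference was -0.15 ± 0.18 (adjusted p = 0.937), while 3 of its 4 other probe sets had a positive one.

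Maf, a leucine zipper transcription factor, had intensities of 853, 831, 3330.3 and 988 in T-ETV1 A to D, against 1232, 2124 and 2693 in WT A to C. T-ETV1 C was far above the other T-ETV1 arrays and above all WT arrays, whereas T-ETV1 A, B and D lay below every WT array. The difference was -0.63 ± 0.55 (adjusted p = 0.910) with all 7 arrays and -1.10 without T-ETV1 C (adjusted p = 0.325, over all alternatives 0.325 to 0.999). All 6 probe sets of Maf had a negative difference, between -0.21 ± 0.26 and -1.95 ± 1.12, and 1 of them (-1.69 ± 0.53, adjusted p = 0.798) had groups that did not overlap. Srf, the serum response factor, varied about as widely, at -0.28 ± 0.53. The remaining members of this role, Arid5b, Pa2g4, Tsc22d1 and Zbtb10, had differences of -0.095 ± 0.25, -0.073 ± 0.12, -0.12 ± 0.21 and 0.059 ± 0.21, each smaller in size than its standard error.

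Of 15 signalling members 8 had a positive and 7 a negative difference, with a median of 0.013. Stk39, a kinase that controls cation chloride cotransporters, had intensities of 2216, 2148, 2200.3 and 2128 in T-ETV1 A to D, against 1945, 2076 and 2101 in WT A to C. The groups did not overlap, the spread was the smallest of the 58 members, and the difference was 0.091 ± 0.088 (adjusted p = 0.919). Homer2, a scaffold protein of calcium signalling, had intensities of 556, 407, 861 and 561 in T-ETV1 A to D, against 389, 443 and 427 in WT A to C. T-ETV1 C was the highest array and T-ETV1 B lay among the WT arrays, for a difference of 0.44 ± 0.24 (adjusted p = 0.858) and one of -0.25 in 1 of its other probe sets. Camkk2, the calmodulin-dependent kinase that activates AMPK and a known androgen target of human prostate cancer cells, had intensities of 250.1, 469.7, 380.4 and 251 in T-ETV1 A to D, against 313, 350.5 and 441 in WT A to C. The groups overlapped (difference -0.15 ± 0.26, 95% interval -0.77 to 0.46), and of its 4 probe sets 3 had a negative and 1 a positive difference.

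Some signalling members were dim. Mak, a kinase of male germ cells, had intensities of 7.20, 4.59, 5.51 and 8.15 in T-ETV1 A to D, against 31.5, 7.27 and 11.6 in WT A to C, where only WT A and WT C exceeded every T-ETV1 array. Inpp4b, a lipid phosphatase that restrains PI3K signalling, had intensities of 16.6, 16.96, 2.07 and 4.68 in T-ETV1 A to D, against 26.02, 17.6 and 16.3 in WT A to C. Values of this size lie near the added 16, so that log2 differences are compressed, and they were -0.49 ± 0.25 for Mak and -0.51 ± 0.26 for Inpp4b (adjusted p = 0.845 and 0.846). The other probe set of Mak had the opposite sign (0.18). Members with a mean intensity under 100 in both groups were 4 in all, the others being Aldh1a3 and Cenpn.

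Ptk2b, the focal adhesion kinase relative Pyk2, had intensities of 644, 373, 697 and 431 in T-ETV1 A to D, against 744, 439 and 908 in WT A to C. The C array was the highest of each group, and the difference was -0.35 ± 0.32 (adjusted p = 0.913), with 0.046 in its other probe set. Akap12, which anchors protein kinases A and C, had intensities of 83.1, 76.1, 1771 and 405 in T-ETV1 A to D, against 368, 1019 and 2509.8 in WT A to C. T-ETV1 A and B were low, T-ETV1 D was close to WT A, and T-ETV1 C exceeded both WT A and WT B. Within each letter T-ETV1 was lower, with differences of -1.96, -3.49 and -0.50 for A, B and C. The difference was -1.80 ± 1.19 (adjusted p = 0.876, 95% interval -4.63 to 1.03), and -2.68 without T-ETV1 C (adjusted p = 0.424, over all alternatives 0.40 to 0.999). The receptors Bmpr1b, Mertk and Lifr had 0.10 ± 0.14, 0.013 ± 0.19 and -0.22 ± 0.41. The kinase Rps6ka3, the G protein subunit Gnai3 and the phosphatase Ptpn21 had 0.032 ± 0.12, 0.016 ± 0.12 and 0.051 ± 0.15. All 6 of these were smaller in size than their standard errors. Pmepa1, a brake on TGF-beta signalling, had 0.13 ± 1.01, with intensities of 45.5, 259, 656 and 632 in T-ETV1 A to D, against 113, 172 and 769 in WT A to C. T-ETV1 A was the lowest of its arrays and the C arrays were the highest of each group.

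Growth, survival and cell cycle genes (8 members) had 5 positive and 3 negative differences, and held both members with a negative difference and an unadjusted p under 0.05. Cdc14b, a dual-specificity phosphatase named for a yeast regulator of mitotic exit, had intensities of 55.1, 123, 159 and 37.4 in T-ETV1 A to D, against 218, 216 and 299 in WT A to C. Every T-ETV1 array was lower than every WT array, although the T-ETV1 arrays themselves spread over a wide range. Group means on the log2 scale were 6.62 ± 0.80 in T-ETV1 and 8.01 ± 0.25 in WT (SD, n = 4 and 3), for a difference of -1.39 ± 0.43 (limma adjusted p = 0.741). Within the letters A, B and C the differences were -1.72, -0.74 and -0.85. Its other probe set, also dim, had -0.33 ± 0.59 and overlapping groups. The CCGGAAGT match printed above is in the window of this gene. Gnai3, the other member with such a match, had a difference of 0.016 ± 0.12. A link between these matches and the differences was not tested.

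Ndrg1, a stress-responsive protein of differentiated epithelia, had intensities of 67.3, 30.3, 1069.5 and 144 in T-ETV1 A to D, against 464, 1058 and 2820.1 in WT A to C. It had the widest range of all members, 5.94 on the log2 scale, and T-ETV1 C lay between WT B and WT C. Group means were 7.33 ± 1.98 in T-ETV1 and 10.15 ± 1.28 in WT (SD, n = 4 and 3), for a difference of -2.82 ± 1.15 (adjusted p = 0.804). T-ETV1 was the lower array within each letter, with differences of -2.53, -4.53 and -1.39 for A, B and C. All 5 probe sets of Ndrg1 had a negative difference, between -0.31 ± 0.23 and -2.82 ± 1.13. Without T-ETV1 C the difference was -3.74 (adjusted p = 0.226), without WT C it was -2.16 (0.968), and without both it was -3.08 (0.228). Over all its alternatives the adjusted p ran from 0.226 to 0.999, so Ndrg1 passed in none.

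Rrp12, a factor of ribosome assembly, had intensities of 189, 232, 209 and 171 in T-ETV1 A to D, against 152, 184 and 150.2 in WT A to C. WT B was above T-ETV1 D, and the difference was 0.28 ± 0.14 (adjusted p = 0.838). Tpd52, a vesicle protein often gained in prostate cancer, had intensities of 7377, 7739.6, 7041 and 7513 in T-ETV1 A to D, against 6921, 7171 and 6998 in WT A to C. Its difference was 0.077 ± 0.089 (95% interval -0.14 to 0.29), and T-ETV1 A, B and D exceeded all WT arrays while T-ETV1 C did not. Ccnd1, a cyclin of the G1 phase, had intensities of 2696, 2524, 2898 and 2447 in T-ETV1 A to D, against 2179, 2555 and 2824 in WT A to C. The groups overlapped, with 0.073 ± 0.13 for the brightest probe set and negative values (-0.082 and -0.057) for the others. The cyclin Ccnd3 had 0.048 ± 0.097, the centromere protein Cenpn -0.16 ± 0.22 and Tnfaip8, a regulator of apoptosis, 0.29 ± 0.59, all within their errors.

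**Figure D2:**
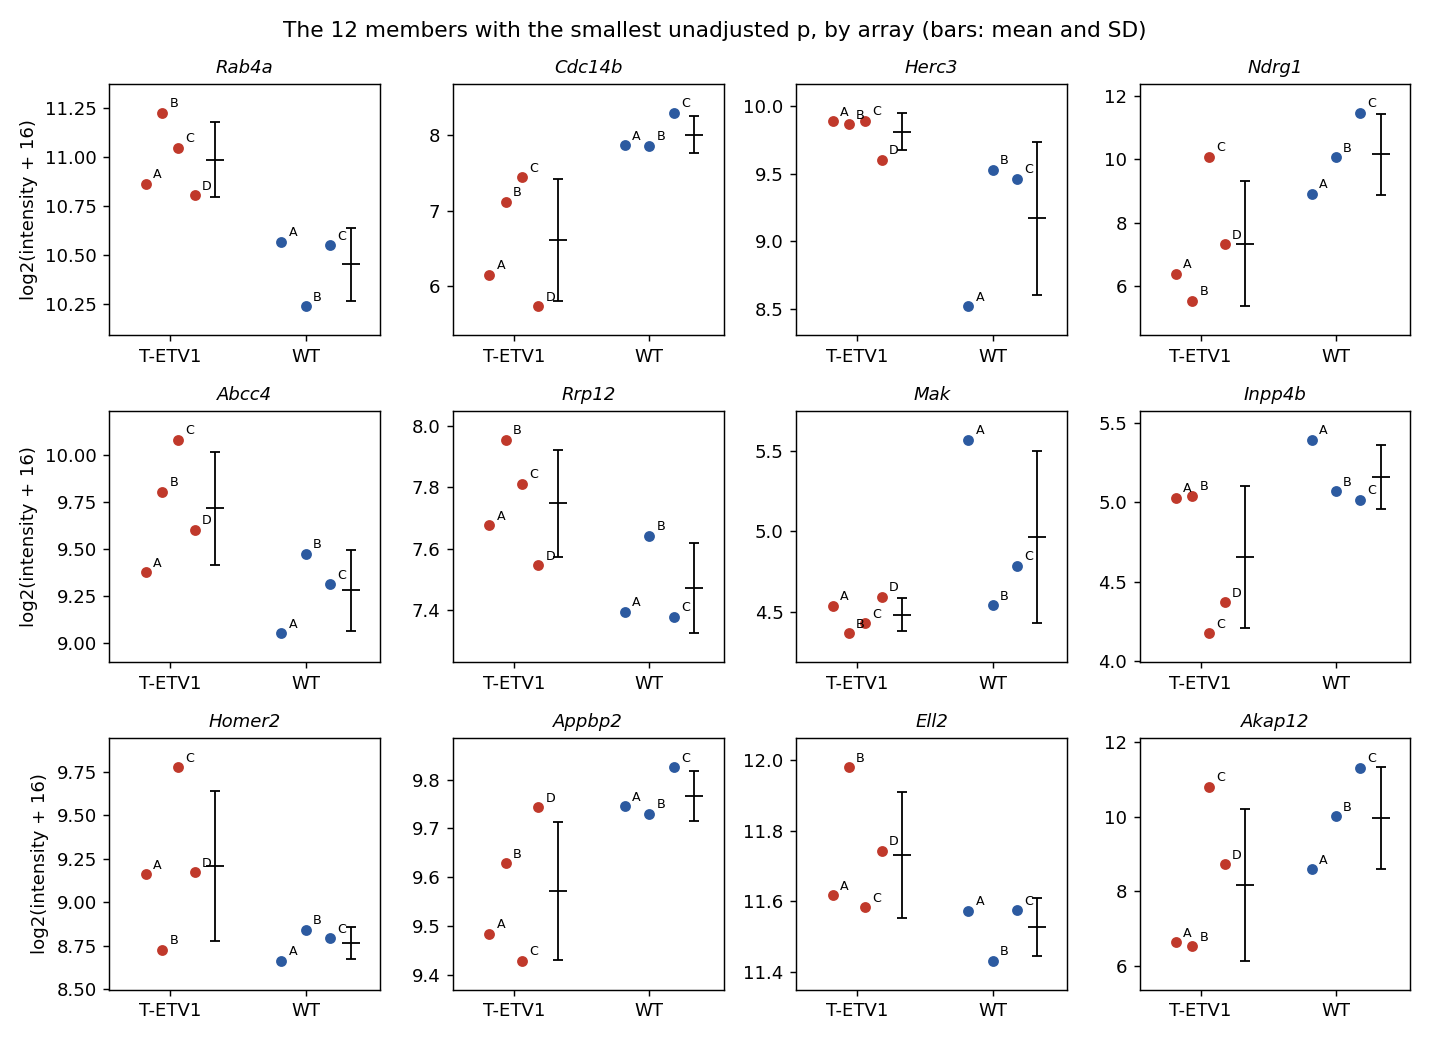
log2(intensity + 16) in each array (points with the array's letter, T-ETV1 red and WT blue) for the 12 members with the smallest unadjusted p, with the group mean and SD beside the points. Rab4a, Cdc14b, Herc3 and Ell2 have groups that do not overlap, while T-ETV1 C lies among the WT arrays for Ndrg1 and Akap12.

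The lipid, steroid and redox enzymes (7 members measured) had 3 positive and 4 negative differences, and none reached an unadjusted p under 0.05. Acsl3, which activates long-chain fatty acids, had intensities of 1849, 2381, 1562 and 2343 in T-ETV1 A to D, against 2107, 1999.9 and 1212 in WT A to C. WT C was the lowest array, and the difference of 0.22 ± 0.25 turned to -0.034 without it. Gpd1l, a relative of glycerol 3-phosphate dehydrogenase, had intensities of 1490.2, 1478, 1709 and 1542 in T-ETV1 A to D, against 1888, 1912 and 1508 in WT A to C. WT A and WT B exceeded all T-ETV1 arrays and WT C did not, for a difference of -0.18 ± 0.13 (adjusted p = 0.881). Dbi, the acyl-CoA binding protein, had intensities of 6005, 5776, 7541 and 5736 in T-ETV1 A to D, against 6427, 6404 and 6481 in WT A to C. T-ETV1 C was the highest and the other T-ETV1 arrays lay below all WT arrays. Its difference was -0.048 ± 0.13, and it turned to 0.088 after median centring. Aldh1a3, which makes retinoic acid, had intensities of 11.9, 9.16, 154 and 6.94 in T-ETV1 A to D, against 11.4, 34.99 and 161 in WT A to C. Only the C arrays were above 100, and the difference of -0.63 ± 0.91 turned to 0.12 without WT C. Hpgd, which inactivates prostaglandins, the hydrolase Abhd2 and the metalloreductase Steap4 had 0.015 ± 0.20, 0.018 ± 0.11 and -0.55 ± 0.76.

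Members of the secretory path and protein turnover (9 members) varied least within groups, with a median residual SD of 0.093 on the log2 scale, beside 0.19 over all members. Herc3, a ubiquitin ligase of the HECT family, varied most among them, with intensities of 933, 918, 936 and 762 in T-ETV1 A to D, against 351, 724 and 690.4 in WT A to C. All T-ETV1 arrays exceeded all WT arrays, and WT A was far below the other WT arrays. The difference was 0.64 ± 0.26 (adjusted p = 0.804) with all arrays and 0.32 without WT A (adjusted p = 0.754, over all alternatives 0.497 to 0.999). Ube2j1, a ubiquitin-conjugating enzyme of the endoplasmic reticulum, had intensities of 827, 865, 748 and 814 in T-ETV1 A to D, against 855, 874 and 911 in WT A to C, with WT B and WT C above every T-ETV1 array. Its difference was -0.11 ± 0.096, with the opposite sign after median centring (0.024) and in its other probe set (0.050). Pgm3 and Uap1, enzymes that make the sugar donor UDP-GlcNAc, had 0.049 ± 0.096 and 0.082 ± 0.12, and the galactosyltransferase B4galt1 had -0.0011 ± 0.12. Lman1, a cargo receptor between the endoplasmic reticulum and the Golgi, had 0.082 ± 0.10, and the coat protein Sec24d had -0.0090 ± 0.10. Spcs3, a subunit of the signal peptidase, had -0.058 ± 0.11 and Vapa, a membrane contact protein, -0.037 ± 0.093. The 95% intervals of these 7 genes all lay within 0.5 either way.

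Transport, cytoskeleton and vesicle members (9 members) included the gene with the smallest p of the whole list. Rab4a, a small GTPase of early endosomes, had intensities of 1848, 2377, 2100.2 and 1771 in T-ETV1 A to D, against 1501, 1192 and 1483 in WT A to C. Every T-ETV1 array exceeded every WT array. Group means on the log2 scale were 10.98 ± 0.19 in T-ETV1 and 10.45 ± 0.18 in WT (SD, n = 4 and 3), for a difference of 0.53 ± 0.15 (95% interval 0.18 to 0.89, adjusted p = 0.716). T-ETV1 was the higher array within each letter, by 0.30, 0.99 and 0.50 for A, B and C. Its other probe set gave 0.35 ± 0.13, again with groups that did not overlap. Without each array in turn the difference stayed between 0.43 and 0.59, and no alternative brought it past the threshold (adjusted p 0.223 to 0.999, the smallest with array weights).

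Abcc4, an exporter of cyclic nucleotides and organic anions, had intensities of 648, 878, 1067 and 762 in T-ETV1 A to D, against 514, 695 and 620.1 in WT A to C. T-ETV1 A lay below WT B, and the other T-ETV1 arrays exceeded all WT arrays. The difference was 0.44 ± 0.20 (adjusted p = 0.822), and T-ETV1 was the higher array within each letter, by 0.33, 0.33 and 0.77. With the letter as a block, which leaves out T-ETV1 D, Abcc4 and Akap12 had an unadjusted p under 0.05 and Herc3 had not. None of the 3 passed after adjustment (adjusted p = 0.685, 0.670 and 0.708). Without T-ETV1 D and with no block, none of the 3 had an unadjusted p under 0.05. Appbp2, which binds the amyloid precursor protein, had intensities of 700.4, 776, 673 and 841 in T-ETV1 A to D, against 843, 833 and 891 in WT A to C. T-ETV1 D lay among the WT arrays, for a difference of -0.20 ± 0.11 (adjusted p = 0.866), and 3 of its 6 probe sets had the opposite sign. The sulfate transporter Slc26a2 and the amino acid transporter Slc38a2 had 0.012 ± 0.50 and -0.033 ± 0.21. Among proteins of the cytoskeleton Actn1 had 0.0090 ± 0.14, Iqgap2 -0.087 ± 0.11, Map7 0.013 ± 0.11 and Pdlim5 -0.097 ± 0.15. None of these 6 exceeded its standard error in size.

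Probe sets of 1 gene did not always share a sign. Of the 58 members 9 had a single probe set, 20 had several of 1 sign and 29 had probe sets of both signs. Tested each on its own, 0 of the 168 probe sets of the members passed after limma adjustment, and 12 had an unadjusted p under 0.05 (7.14%, beside 6.06% of all probe sets tested). They belonged to Rab4a, Herc3, Cdc14b, Ndrg1, Cenpn, Maf, Map7, Pdlim5 and Tsc22d1. Among these 12 was a dimmer probe set of Pdlim5, at 0.91 ± 0.14 (adjusted p = 0.476), whereas the brightest of that gene had -0.097 ± 0.15. A dimmer probe set of Map7 had -0.51 ± 0.17 and groups that did not overlap, beside 0.013 ± 0.12 for the brightest. Probe sets other than the brightest gave -0.50 ± 0.19 for Cenpn and 0.51 ± 0.21 for Tsc22d1, the second with the opposite sign to its brightest one. These 4 genes were chosen after their values were seen, and which transcripts the probe sets read was not tested.

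The spread between arrays of a group set apart a small number of members. The residual SD of the members had a median of 0.19 on the log2 scale, beside 0.27 over all genes, as the plot of cumulative spread shows. It was 1 or more in 5 members (8.62%, beside 6.69% of all genes), namely Akap12, Ndrg1, Pmepa1, Aldh1a3 and Steap4. In all 5 of these the C array was the highest of its group in both T-ETV1 and WT. The same held for 56.4% of the 1217 genes of the array with a residual SD of 1 or more, for 13 of the 58 members (22.4%) and for 19.7% of all genes. Steap4, for example, had intensities of 590.5, 245, 1546 and 346 in T-ETV1 A to D, against 309, 1057 and 1460.2 in WT A to C. In the map of deviations the C arrays of both groups are high for Akap12, Ndrg1, Aldh1a3, Steap4 and Maf, and WT B is high as well for all of these but Aldh1a3.

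**Figure D3:**
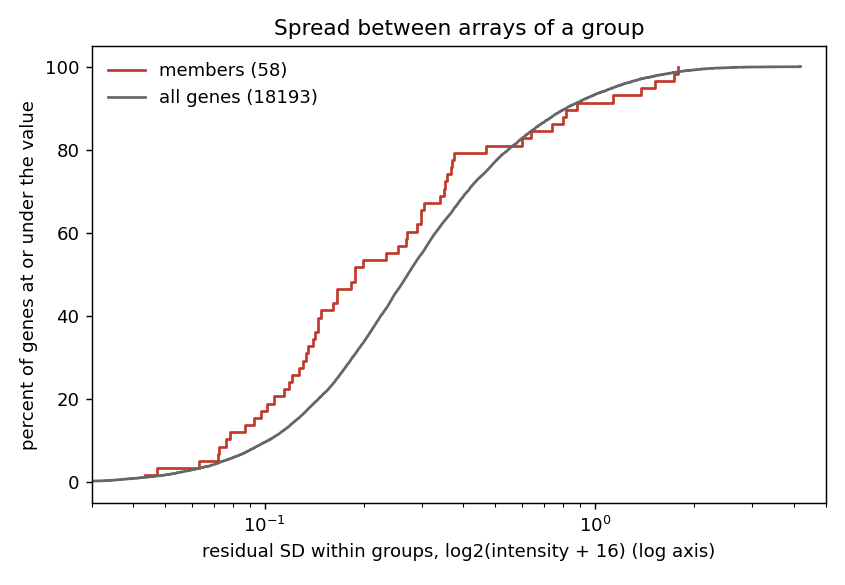
Cumulative share of genes (vertical axis, percent) at or under a given residual SD within groups (horizontal axis, log2 units on a log axis), for the 58 members in red and all 18193 genes in grey. The members' curve lies above that of all genes at low spread, with medians of 0.19 and 0.27, and the curves meet at high spread. The members and all genes were not matched for brightness.

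Markers of other cell types differed between the same arrays, while all luminal markers were bright on every array. The summed intensity of 8 luminal markers, Krt8, Krt18, Cd24a, Pbsn, Hoxb13, Epcam, Tmprss2 and Cldn3, was 56271 to 64181 in T-ETV1 arrays and 57818 to 61129 in WT arrays. The lowest single value among them was that of Cldn3 in T-ETV1 C, at 2663. Several of these probe sets lie near the top of the scale, so a steady sum does not show a steady share of luminal cells. The sum of 8 basal markers was 3560.1 to 20009 in T-ETV1 arrays and 8537 to 22302 in WT arrays, and 8 of 8 had a negative difference. Endothelial markers summed to 449 to 2496 in T-ETV1 arrays and 1738 to 4519.9 in WT arrays (8 of 8 negative). Fibroblast markers summed to 1813 to 8515 in T-ETV1 arrays and 3806 to 20501 in WT arrays (7 of 7 negative). Smooth muscle and pericyte markers summed to 127 to 811 in T-ETV1 arrays and 612 to 5734 in WT arrays (7 of 7 negative). The highest value of each range was that of the C array for these 4 lists.

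Macrophage markers summed to 6256 in T-ETV1 C and 11788 in WT C (5 of 6 negative over all arrays). They summed to 118 to 247 in the other T-ETV1 arrays and 109 to 135 in the other WT arrays. Leukocyte markers summed to 5816 to 9589 in T-ETV1 arrays and 6909 to 11984 in WT arrays (5 of 6 negative). Their median residual SD was 1.81 on the log2 scale, so the sum does not describe each marker. Seminal vesicle markers summed to 33425 to 42036 in T-ETV1 arrays and 26387 to 33036 in WT arrays (5 of 5 positive), and neuroendocrine markers to 88.3 to 148 in T-ETV1 arrays and 211 to 364 in WT arrays (4 of 4 negative). Krt5, a keratin that defines basal cells, had intensities of 24.7, 16.4, 1753 and 205 in T-ETV1 A to D, against 349, 1578 and 2364 in WT A to C. These values put the 7 arrays in the same order as Ndrg1 and in nearly the same order as Akap12. The order was not particular to this basal marker. The endothelial sum had the order of Ndrg1 as well, whereas the basal sum had not, with T-ETV1 A (3560.1) below T-ETV1 B (4292). No marker was listed at 0. In RNA from sorted populations fewer cells of a type and less RNA per cell cannot be told apart, and the part of other cells in the values of Ndrg1, Akap12, Aldh1a3, Steap4, Pmepa1 and Maf was not tested.

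**Figure D4:**
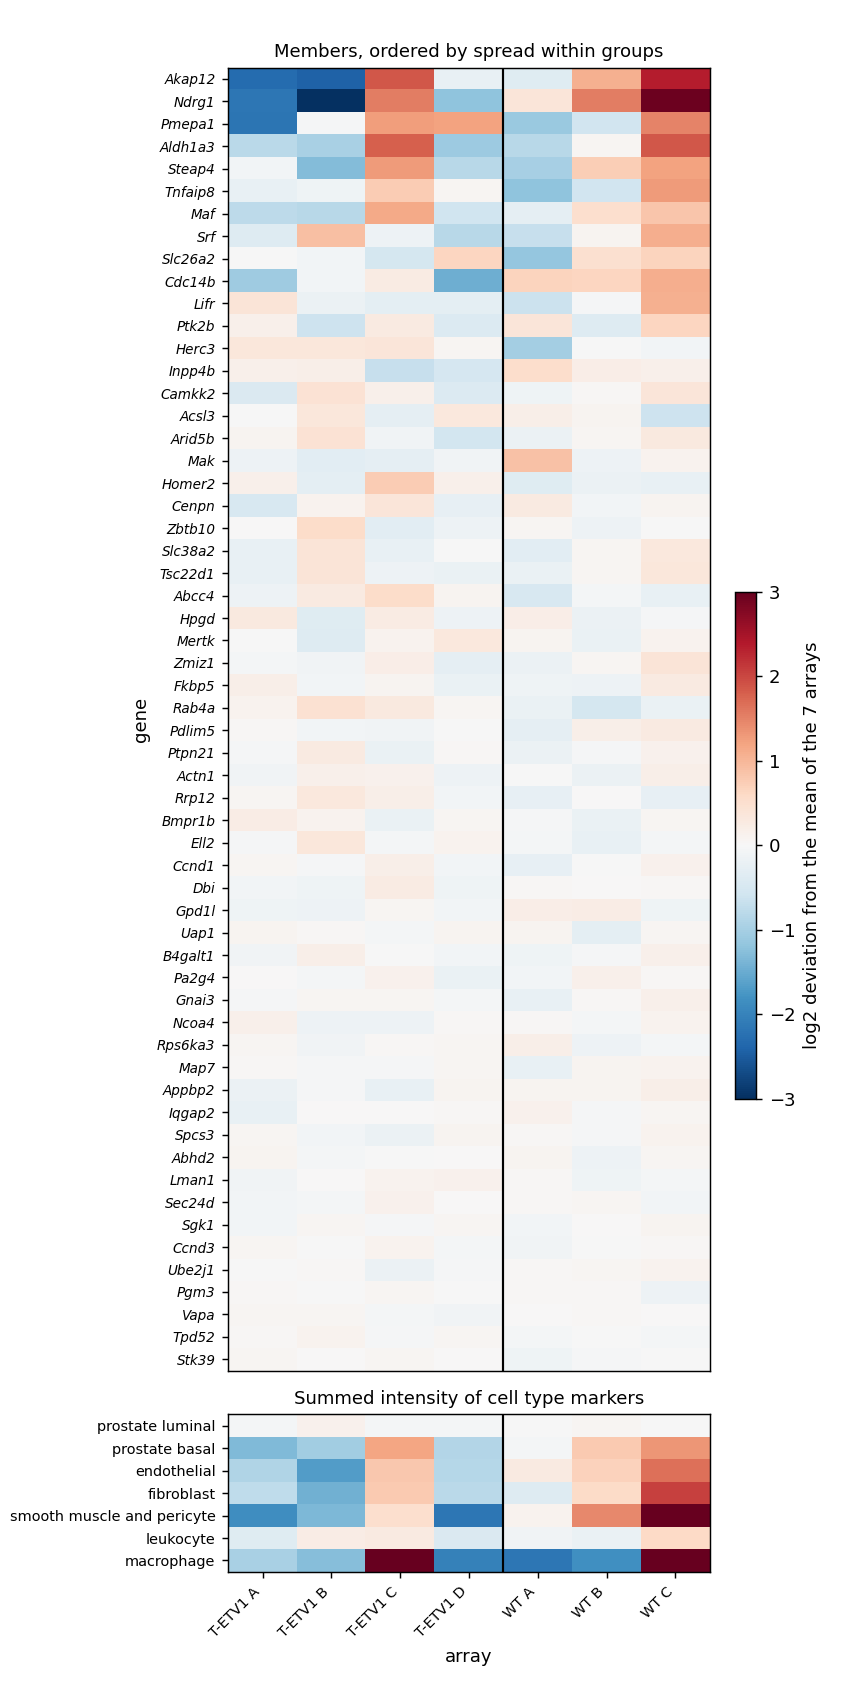
Deviation of each array (columns, T-ETV1 left of the black line and WT right of it) from the mean of the 7 arrays on the log2 scale, for the 58 members ordered from the widest to the narrowest spread within groups (upper panel) and for the summed intensity of cell type markers (lower panel). Colours end at 3 in either direction, so larger deviations look alike. The members at the top and the basal, endothelial, fibroblast, smooth muscle and macrophage markers are high in both C arrays, while the luminal markers and most members vary little.

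Which members separated the groups varied with the arrays that were kept. Without both C arrays the groups did not overlap in 15 of 58 members (25.9%), beside 26.0% of all genes, and without WT B, which lies between WT A and WT C for many of these genes, in 12 (20.7%, beside 11.7%). With fewer arrays such separation is more frequent for all genes. Over all genes 27 passed the threshold without T-ETV1 C (0.148%), 7 without WT C (0.0385%) and 68 without both (0.374%), and none of these was a member. Within the letters A, B and C the difference had 1 sign in 16 of 58 members (27.6%), 8 positive and 8 negative, the same share as over all genes (27.6%).

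The receptor's partners were measured beside its targets. Of 40 genes for the androgen receptor, pioneer factors, coregulators, chaperones and related receptors, 32 were measured and the others were not analysed here. On the deposited scaling there were 11 positive and 21 negative differences (34.4% positive, beside 44.4% of all genes). These counts change under median centring, which adds the same amount to every difference. The median was -0.033, beside -0.026 over all genes. None of the 32 genes was past adjustment by limma and 3 had an unadjusted p under 0.05 (9.38%, beside 6.12% of all genes). Foxa1, the pioneer factor of luminal cells, had intensities of 5087, 5143, 4711 and 5059 in T-ETV1 A to D, against 4960.3, 5062 and 5137 in WT A to C. Its difference was -0.016 ± 0.089 (95% interval -0.23 to 0.20), with overlapping groups and a sign that turned after median centring. Foxa2, a relative found in neuroendocrine prostate cells, was dim, with 7.37, 7.16, 2.64 and 1.0 in T-ETV1 A to D, against 21.9, 19.2 and 12.8 in WT A to C, groups that did not overlap and a difference of -0.73 ± 0.17 (adjusted p = 0.628). Tgfb1i1, a coactivator also known as ARA55 and abundant in stromal smooth muscle, had 8.22, 9.48, 43.7 and 4.39 in T-ETV1 A to D, against 50.97, 38.7 and 338 in WT A to C. Its difference was -1.89 ± 0.72 (adjusted p = 0.798), and its highest array, WT C, was also that of the smooth muscle markers. Nsd2, a histone methyltransferase, had 316, 275, 302 and 405 in T-ETV1 A to D, against 593, 479 and 365 in WT A to C and a difference of -0.53 ± 0.20 (adjusted p = 0.799), with 2 of its 5 probe sets of the opposite sign.

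Further androgen-dependent genes of the prostate, 27 measured of 30 listed, had 12 positive and 15 negative differences and a median of -0.015. The positive share was 44.4%, as over all genes (44.4%). Differences ran from -2.25 to 0.71, and 3 of the 27 were 1 or more in size, beside 5.39% of all genes. No gene of this list passed after limma adjustment, and 1 had an unadjusted p under 0.05 (3.70%, beside 6.12% of all genes). The groups did not overlap in 3 (11.1%, beside 6.32% of all genes). Pbsn, the secreted protein probasin whose promoter is a classic androgen-driven one, had intensities of 12433, 12158, 12163 and 11930.2 in T-ETV1 A to D, against 12142, 12111 and 12447 in WT A to C, near the top of the arrays' scale, where differences can be understated. Its difference was -0.0074 ± 0.085, of either sign between settings. Tmprss2, whose promoter drives the transgene, had 2908, 3508, 4945 and 3535 in T-ETV1 A to D, against 3878, 3818 and 4470.2 in WT A to C and a difference of -0.15 ± 0.19 (adjusted p = 0.944). Elovl7, a fatty acid elongase, had 602, 748, 751 and 679.7 in T-ETV1 A to D, against 1009, 994 and 966 in WT A to C. All its T-ETV1 arrays were lower than all WT arrays, all 6 of its probe sets had a negative difference, and the brightest had -0.51 ± 0.11 (adjusted p = 0.628), so it did not pass.

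Since the glucocorticoid receptor binds like elements, 16 glucocorticoid-responsive genes outside the list were counted. Among them 3 had a positive and 13 a negative difference (18.8% positive, beside 44.4% of all genes), with a median of -0.19. None reached even an unadjusted p under 0.05, which 6.12% of all genes did. Because Ndrg1 is also known to respond to low oxygen, 16 hypoxia-responsive genes were counted beside it. They had 8 positive and 8 negative differences, with a median of 0.0080. Of these genes 1 (6.25%, beside 6.12% of all genes), the dim carbonic anhydrase gene Car9, had an unadjusted p under 0.05, at -0.51 ± 0.21 (adjusted p = 0.804).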

How the data were processed

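RNA of sorted luminal cells was extracted with Trizol, amplified with a NuGEN kit and hybridised to Affymetrix mouse arrays, per the labels' protocols. The table the authors deposited lists a linear intensity for each of 45037 probe sets on each array. How the authors summarised and scaled them is not given in the sources used here. Medians of log2(intensity + 16) differed by at most 0.476 between arrays, under the limit of 0.5 for quantile normalization, so the deposited scaling was kept.

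Probe sets with 1 gene symbol in the platform annotation were used (34945, while 932 had several and 9160 were not listed), and 34741 were matched by Entrez ID to RefSeq GRCm38.p6. The brightest probe set stood for a gene. Differences were fitted by lmFit and eBayes (limma 3.58.1, R 4.3.3; two-sided, 6.67 total degrees of freedom), with Benjamini-Hochberg adjustment over all genes and a threshold of 0.05. The number of arrays limits the precision.

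The member list uses no measured value, but the members, the other lists and the tests were chosen with earlier results of these data known. Named with values are the 20 members with the smallest p, those with an absolute difference of 1 or more or groups that do not overlap, the 3 brightest and 3 dimmest, Fkbp5, Camkk2, Ncoa4 and Ccnd1, and of the other lists Foxa1, Tmprss2 and Pbsn and up to 4 genes a list with an unadjusted p under 0.05. Array values of Pmepa1, Steap4 and Krt5 were added after they were seen. Apart from the brightest and dimmest members and the filters by level, brightness of different probe sets was not compared.

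Both groups use the letters A to C. Deviations from group means correlated at 0.281 (A), 0.217 (B) and 0.356 (C), over the limit of 0.1 for pairing, as did T-ETV1 D with WT A (0.187). The pairing rests on the letters in the labels and these correlations. No 2 arrays held the same values: at most 71 of 45037 were equal. Alternatives were other scalings, pseudocounts, filters, probe set rules, variance models, array weights, the replicate block and leaving out arrays.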

Additional observations from a re-analysis of the deposited data

Results flagged for a closer look

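By Dixon's criterion on log2(intensity + 16), 1 of the 4 T-ETV1 arrays stood far from the other 3 for 8 of 66 genes examined. Chance alone gives such a call in about 1 of 20 groups of normally distributed values. The criterion was not applied to all genes, so no share of the whole array stands beside these 8 genes. T-ETV1 C was the outlying array for 4 of them. Aldh1a3 was at 7.41 there, against 4.52 to 4.80 in the other T-ETV1 arrays, Maf at 11.71 against 9.73 to 9.97, Dbi at 12.88 against 12.49 to 12.56, and Car9, which is not a member and was dim on every array, at 4.60 against 4.41 to 4.42. T-ETV1 A was outlying for Iqgap2, at 12.03 against 12.25 to 12.28, and for Lifr, at 9.40 against 8.72 to 8.83. T-ETV1 B was outlying for Tsc22d1, at 11.96 against 11.33 to 11.41, and T-ETV1 D for Herc3, at 9.60 against 9.87 to 9.89. The criterion was applied to the T-ETV1 arrays only, and the 3 WT arrays were not examined with it.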

How the results depend on the processing

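No member passed an adjusted p of 0.05 in limma under any of the 20 alternatives. Over all genes, or all probe sets where each was tested, 0 passed under those that kept every array, and 0 to 68 genes passed when arrays were left out. Against 2 members with a positive difference at an unadjusted p under 0.05, there were 4 after median centring, 3 after quantile normalization, 1 with a pseudocount of 1, 1 when probe sets of a gene were averaged, 1 with array weights and 5 of 168 when every probe set was tested, and 1 to 3 without some arrays. Against 2 with a negative difference, there were 1 with a pseudocount of 1, 1 without the lowest 50% of genes, 1 with the mean of probe sets, 3 with array weights and 7 of 168 probe sets, and 0 to 4 without some arrays. At that threshold stood 6.57% of all genes after median centring, 6.53% after quantile normalization, 6.27% with a pseudocount of 1, 5.72% without the lowest 50%, 6.16% with the mean of probe sets, 12.9% with array weights, 6.06% of all probe sets, and 4.45% to 9.84% without some arrays. Members whose groups did not overlap numbered 8 after median centring (13.8%, all genes 6.76%), 3 with the mean of probe sets (5.17%, all genes 6.54%), 10 of 168 probe sets (5.95%, all probe sets 6.28%), and 6 to 15 without some arrays (10.3% to 25.9%, all genes 9.06% to 26.0%). The replicate block was fitted without T-ETV1 D, which has no partner. With it 2 members had a positive and 3 a negative difference at an unadjusted p under 0.05, beside 7.22% of all genes. They were Rab4a and Abcc4, and Cdc14b, Ndrg1 and Akap12, so that Abcc4 and Akap12 were gained and Herc3 was lost. Leaving out T-ETV1 D with no block kept Cdc14b and Rab4a alone (all genes 4.45%). The block and the loss of T-ETV1 D were not told apart. After adjustment 0 members passed with the block. Of 714 values of named genes under alternatives, 51 turned in sign, and 11 of 27 named members never did: Rab4a, Cdc14b, Herc3, Ndrg1, Abcc4, Rrp12, Inpp4b, Akap12, Gpd1l, Maf and Stk39.

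After median centring the log2 difference was 0.024 for Ube2j1, 0.13 for Sgk1 (0.0079 after quantile normalization), 0.088 for Dbi, 0.082 for Ncoa4, 0.12 for Foxa1 and 0.13 for Pbsn. With array weights it was 0.035 for Ncoa4 and 0.0015 for Pbsn, and with the replicate block 0.0021 for Pbsn. The mean of probe sets gave 0.014 for Zmiz1, -0.025 for Fkbp5 and -0.022 for Ccnd1. Other probe sets of a gene had the opposite sign for Mak (0.18), Homer2 (-0.25), Appbp2 (0.20, 0.10 and 0.014), Ell2 (-0.15), Ube2j1 (0.050), Ptk2b (0.046), Tpd52 (-0.012), Zmiz1 (0.55, 0.084 and 0.28), Aldh1a3 (0.098 and 0.0017), Fkbp5 (-0.13), Camkk2 (0.046), Ccnd1 (-0.082 and -0.057) and Nsd2 (0.040 and 0.37). Leaving out arrays gave -0.034 to 0.36 for Acsl3, -0.28 to 0.0015 for Zmiz1, -0.054 to 0.048 for Sgk1, -1.31 to 0.12 for Aldh1a3, -0.073 to 0.14 for Fkbp5, -0.12 to 0.021 for Ncoa4, -0.027 to 0.16 for Ccnd1, -0.030 to 0.024 for Foxa1 and -0.018 to 0.0054 for Pbsn. Median centring adds the same amount to every difference, so it turns small negative ones whatever the gene. The cause of the other turns was not tested. Mak, Inpp4b, Aldh1a3 and Cenpn had mean intensities under 100 in both groups, and no detection call was used.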
